A study of Saccharomyces cerevisiae with 24 samples.

Results

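The comparison described here set 3 arrays of a yeast strain lacking SIP1 directly against 3 arrays of a strain lacking SIP2, that is 6 of the 24 arrays of the series. The arrays were chosen by their titles, and no reference array entered the comparison. The Snf1 protein kinase of Saccharomyces cerevisiae carries 1 of 3 interchangeable β-subunits, the products of SIP1, SIP2 and GAL83, so each of these strains kept GAL83 and exactly 1 of the other β-subunit genes. A positive difference means a higher level in the strain lacking SIP1 (sip1Δ), and a negative one a higher level in the strain lacking SIP2 (sip2Δ).

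All 8 strains of the series, with 3 cultures labelled as biological replicates each, grew in aerobic 1 L bioreactors at 30 °C and pH 5.0. The medium held 10 g/L glucose and was fed at a dilution rate of 0.1 per h. Cells were taken at steady state, and total RNA went onto Affymetrix yeast arrays. Apart from the sip1Δ and sip2Δ strains, the results below use strains lacking GAL83 alone (gal83Δ), SIP1 and GAL83 (sip1Δ gal83Δ), SIP2 and GAL83 (sip2Δ gal83Δ), both SIP genes (sip1Δ sip2Δ) or all 3 genes, and the reference strain, labelled wild type. The labels used here name no strain background, marker gene or clone number. The α-mating-type genes were high in both strains, with MF(ALPHA)1, the α-factor precursor gene, at a mean of 14.98 in sip1Δ and 15.03 in sip2Δ. STE2, the receptor gene of the opposite mating type, read 7.40 and 7.21.

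Snf1 is the yeast AMP-activated protein kinase. It is activated by the upstream kinases Sak1, Tos3 and Elm1 when glucose is scarce, and it relieves the repression of genes for other carbon sources by the Mig1 repressor and switches on the activators Cat8, Sip4 and Adr1. The β-subunits hold the catalytic subunit Snf1 and the regulatory subunit Snf4 together and direct the complex within the cell: Gal83 to the nucleus, Sip1 to the vacuolar membrane, and Sip2 to the cytoplasm. A glucose-fed culture at a low growth rate keeps little free glucose, so genes for other carbon sources are commonly expressed there.

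The deleted genes were read first, as a check of the labels. SIP1 (YDR422C) read 2.04, 2.03 and 2.03 on the log2 intensity scale in sip1Δ and 10.86, 10.87 and 10.98 in sip2Δ. The difference was -8.87 ± 0.04 (log2, standard error of the limma fit, n = 3 arrays per strain, adjusted p = 4.45e-08). SIP2 (YGL208W) read 10.49, 10.43 and 10.46 in sip1Δ and 2.02, 2.03 and 2.02 in sip2Δ, a difference of 8.43 ± 0.03 (limma, adjusted p = 1.42e-08). All 6 arrays matched their titles, and a value near 2 is the bottom of the scale on these arrays. GAL83, present in both strains, read 10.77, 10.68 and 10.71 in sip1Δ and 10.95, 10.76 and 10.85 in sip2Δ. Its strains overlapped, and its difference of -0.14 had a 95% interval from -0.28 to 0.01 (limma, adjusted p = 0.399).

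Beyond the 2 deleted genes, the transcriptomes of the strains lay close together. Over 5449 genes the median difference was 0.02 and the median absolute difference 0.07, and 97.9% of genes lay within 0.5 of 0. Limma with Benjamini-Hochberg adjustment called 5 genes, or 0.0918% of those tested, at an adjusted p under 0.05. Of these, 2 were higher in sip1Δ (0.0367%) and 3 lower (0.0551%). At an unadjusted p under 0.05 there were 703 genes (12.9%). The called genes were SIP1, SIP2, the acid phosphatase gene PHO5 and the reading frames YIR042C and YHR054C. The last pair lacks standard names, so both fell outside the rule for named genes and were singled out after their values were seen. A difference of 0.5 or more was seen in 116 genes (2.13%) and one of 1 or more in 25 (0.459%), 10 of the latter higher and 15 lower in sip1Δ, and in 17 of the 25 the arrays of the strains did not overlap. With 3 arrays per strain the fit had 4 residual degrees of freedom.

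Taking the spread of each gene from all 24 arrays, which left 16 residual degrees of freedom, raised the number of called genes to 36 (0.661%), of which 22 were higher in sip1Δ (0.404%) and 14 lower (0.257%). These included all 5 genes of the 6-array fit. Leaving out 3 arrays of other strains that an earlier analysis doubted gave 64 genes (1.17%), 45 of them higher in sip1Δ (0.826%) and 19 lower (0.349%), again with all 5. The plot of differences against mean level shows where both sets lie.

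**Figure D1:**
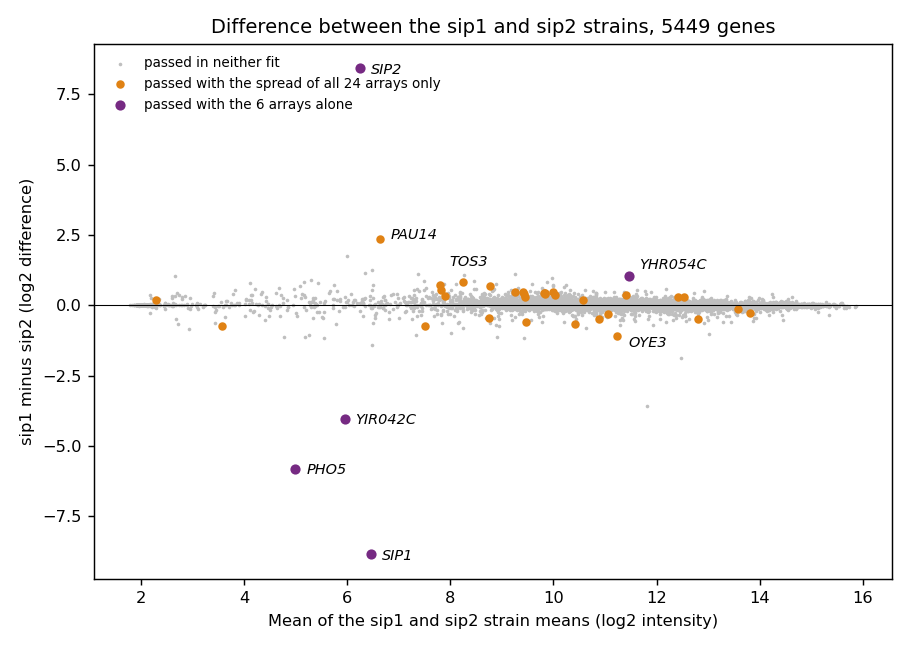
Difference between the sip1Δ and sip2Δ strains (vertical axis, log2) against the mean of the strain means (horizontal axis, log2 intensity) for 5449 genes, 1 point a gene. Purple points passed the limma test with the 6 arrays alone (5 genes), orange points only with the spread of all 24 arrays, and grey points in neither. Most genes lie in a narrow band about 0, with SIP1 at -8.87, SIP2 at 8.43, PHO5 at -5.82 and YIR042C at -4.03 far from it.

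PHO5 was the gene most unlike between the strains after the deleted genes. PHO5 (YBR093C) encodes the main phosphate-repressible acid phosphatase, a secreted enzyme that frees phosphate outside the cell. It read 2.08 in each of the 3 sip1Δ arrays and 8.06, 7.82 and 7.83 in the sip2Δ arrays. The sip1Δ values stood at the bottom of the scale, where the deleted genes also read, while the sip2Δ values were moderate. The difference was -5.82 ± 0.07 (limma, n = 3 arrays per strain, adjusted p = 5.28e-06). A fold change from it depends on where the array's scale ends, so the 56.6-fold lower level in sip1Δ is that of the measured signals only. The call held whichever array was left out, and it was lost only where all values were raised to 9.622, the level that bounds the lowest 25% of genes. In bulk cultures such as these, fewer cells carrying a transcript and less of it per cell cannot be told apart. Why the PHO5 signal stood at the bottom of the scale in sip1Δ was not tested.

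No other gene of the phosphate regulon was called with PHO5. In yeast, low phosphate lets the cyclin-dependent kinase inhibitor Pho81 act on Pho80 and Pho85, so that the transcription factor Pho4, with Pho2, turns on PHO5, the phosphate transporter gene PHO84 and other targets. Of 24 measured genes of this regulon, PHO5 was called and the other 23 were not, and the median difference of the list was 0.06 against 0.02 over all genes. PHO84, the high-affinity transporter, read 7.10, 6.25 and 8.76 in sip1Δ and 8.42, 6.19 and 6.70 in sip2Δ. The replicates of each strain were spread over more than 2 log2 units, so the difference of 0.27 ± 0.88 was not resolved (limma, adjusted p = 0.949). SPL2, which restrains low-affinity phosphate uptake, stood at the bottom of the scale in every one of the 6 arrays, between 2.05 and 2.06. PHM6, another target of Pho4, read 2.18 to 2.19 in all 6.

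The regulators of the regulon differed little in their estimates. PHO4 differed by 0.09 (95% interval -0.19 to 0.36), PHO81 by 0.13 (-0.06 to 0.32), PHO80 by 0.17 (-0.06 to 0.40) and PHO2 by 0.13 (-0.08 to 0.35). PHO11, a second repressible acid phosphatase gene measured by a probe set shared with near-identical genes, read 9.39, 9.17 and 9.28 in sip1Δ and 9.06, 9.13 and 9.01 in sip2Δ. Its arrays did not overlap, and its difference of 0.21 ± 0.07 was not called (limma, adjusted p = 0.337). PHO8, the vacuolar alkaline phosphatase gene, differed by 0.13 with an adjusted p of 0.269 in limma. VTC4, which makes polyphosphate, differed by -0.09 with an adjusted p of 0.385.

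PHO3, the constitutive acid phosphatase gene that sits next to PHO5, had the next largest difference of the regulon, in the opposite direction. It read 6.0, 5.39 and 5.31 in sip1Δ and 4.86, 4.67 and 4.74 in sip2Δ. All sip1Δ arrays lay above all sip2Δ arrays, with a difference of 0.81 ± 0.20 that limma did not call (adjusted p = 0.269 with 6 arrays and 0.212 with the spread of all 24). Of the other genes around PHO5, PBY1 differed by 0.01 and RXT2 by -0.01. TIM12, a mitochondrial import gene, differed by 0.21 (95% interval 0.03 to 0.39) with all sip1Δ arrays above all sip2Δ arrays. None of these 3 was called.

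YIR042C, a reading frame with no standard name, also fell in sip1Δ relative to sip2Δ. It read 4.11, 3.85 and 3.84 in sip1Δ and 8.24, 7.85 and 7.79 in sip2Δ. The strains were far apart, and the sip1Δ values lay above the bottom of the scale. The difference was -4.03 ± 0.15 (limma, n = 3 arrays per strain, adjusted p = 0.00109, 95% interval -4.40 to -3.65), and its call too was lost where values were raised to 9.622. YPS6, a nearby gene for a cell-surface aspartyl protease, read 8.70, 8.46 and 8.41 against 9.11, 8.80 and 9.03. Its difference of -0.46 ± 0.12 was called with the spread of all 24 arrays (limma, adjusted p = 0.0254) but not with the 6 arrays (adjusted p = 0.275). Further along the same chromosome arm, the glutathione transferase gene GTT1 differed by -0.24 and the peroxidase gene HYR1 by -0.20, and neither was called.

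YHR054C rose in sip1Δ relative to sip2Δ. This reading frame lies in the repeated region that also carries the copper metallothionein gene CUP1-1, and its probe set is shared with near-identical sequences, so the copy that gave the signal is uncertain. It read 12.05, 11.95 and 11.93 in sip1Δ and 10.85, 11.05 and 10.92 in sip2Δ. The difference was 1.04 ± 0.07 (limma, n = 3 arrays per strain, adjusted p = 0.0137, 95% interval 0.88 to 1.21). CUP1-1 itself, near the top of the scale, differed by 0.08 (95% interval -0.19 to 0.35), and CIC1, next to the repeats, by -0.07. The call of YHR054C was lost without sip1Δ replicate 1, 2 or 3 (adjusted p = 0.111, 0.142 and 0.0533) and without sip2Δ replicate 1 or 3 (0.058 and 0.110), with a difference between 1.00 and 1.10 over all 6 such fits.

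The levels of these genes in the other strains placed the differences, as the plot of levels by array shows. PHO5 read 8.85 to 8.87 in the reference strain, so both single-deletion strains were below it, sip2Δ by much less. It stayed high in gal83Δ (8.10 to 8.29), in sip2Δ gal83Δ (7.96 to 8.08), in sip1Δ sip2Δ (8.67, 8.78 and 8.16) and in the triple strain (8.30 to 8.65). The last of the sip1Δ sip2Δ values is from the library labelled replicate 3, which read 6.0 for SIP2, the gene it should lack, where the other 2 read 2.02, and so goes against its label. It was at the bottom of the scale in 2 of the 3 sip1Δ gal83Δ arrays (2.07 and 2.08). The third of these, replicate 2, read 4.92 for PHO5 and 9.72 for GAL83, the gene it should lack, and this array therefore goes against its label.

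YIR042C was low in the sip1Δ single strain alone among the 8 strains: the arrays of the other strains lay between 7.33 and 9.02. YHR054C was lowest in the reference strain (10.38 to 10.55) and stood near the sip2Δ level in sip2Δ gal83Δ (10.77 to 10.89). It was near the sip1Δ level in gal83Δ (11.85 to 11.99) and sip1Δ gal83Δ (11.69 to 11.88). The sip1Δ sip2Δ arrays (11.40 and 11.72, and 11.26 in the library labelled replicate 3) and the triple-strain arrays (11.19 to 11.30) lay in between. The reference strain, sip1Δ and sip2Δ thus gave 3 ranges that did not overlap.

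**Figure D2:**
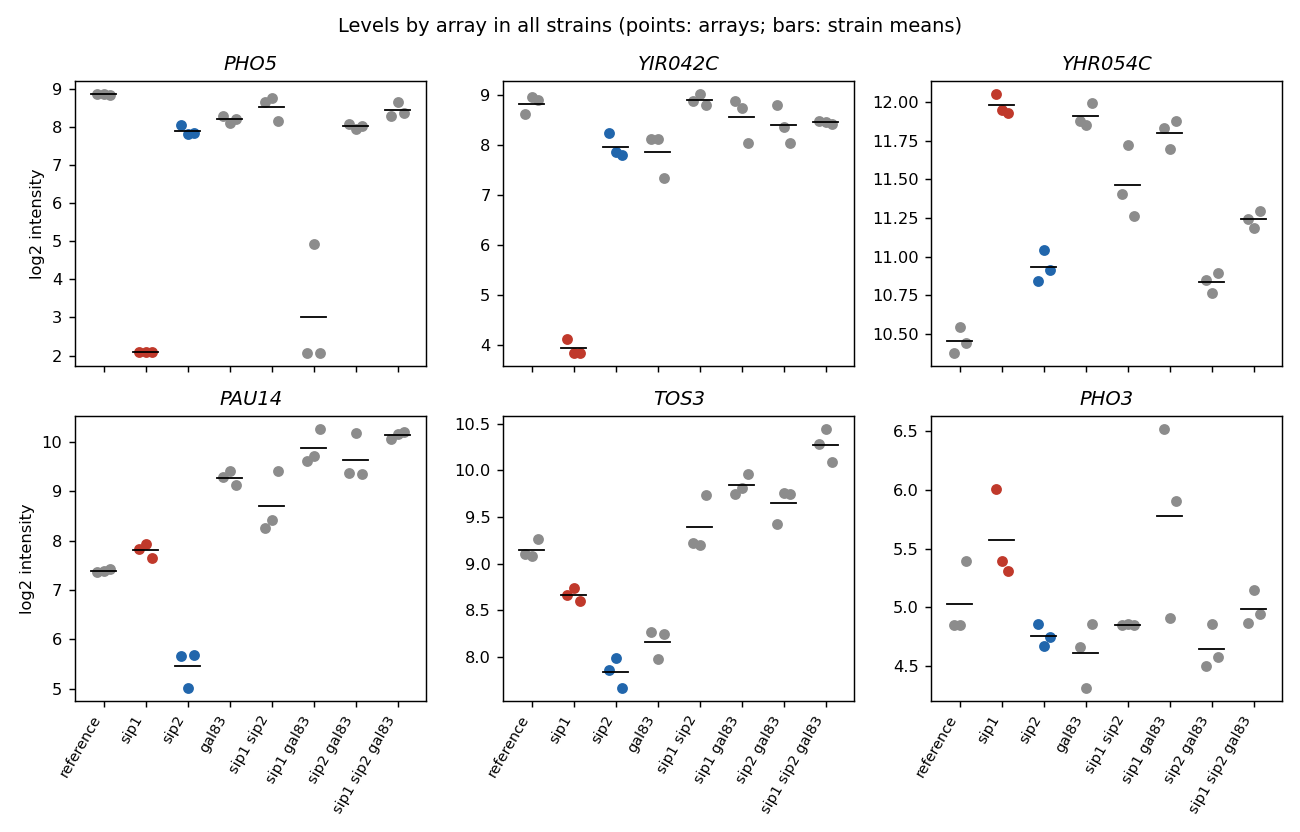
Log2 intensity of PHO5, YIR042C, YHR054C, PAU14, TOS3 and PHO3 (1 panel each) on every array of the 8 strains; points are arrays, black bars are strain means, sip1Δ is red and sip2Δ blue. PHO5 sits at 2.08 in sip1Δ and between 7.82 and 8.06 in sip2Δ, and YIR042C is near 4 in sip1Δ and above 7 in every other strain.

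PAU14 and TOS3 had the largest differences among the genes higher in sip1Δ that were called only with the spread of all 24 arrays, and they were singled out after their values were seen. PAU14 belongs to the seripauperins, a large family of near-identical cell wall genes, and its probe set is shared between members. It read 7.82, 7.93 and 7.65 in sip1Δ and 5.68, 5.03 and 5.68 in sip2Δ. The difference was 2.34 ± 0.20, with an adjusted p of 0.0632 in the 6-array limma fit and 8.96e-05 with the spread of all 24 arrays. In the reference strain it read 7.37 to 7.42, close to sip1Δ, and in gal83Δ 9.11 to 9.40, above both. The other 12 seripauperins measured were not called in either fit, and the list's median difference was -0.004. PAU8 differed by 0.78 ± 0.10 without overlap (limma, adjusted p = 0.169).

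TOS3 encodes one of the kinases that activate Snf1. It read 8.66, 8.74 and 8.60 in sip1Δ and 7.86, 7.99 and 7.67 in sip2Δ. All sip1Δ arrays lay above all sip2Δ arrays, and both strains lay below the reference strain (9.08 to 9.26). The gal83Δ strain lay below it too (7.98 to 8.27). Arrays of the double and triple strains, the doubted ones included, read 9.20 to 10.44. The difference of 0.83 ± 0.09 had an adjusted p of 0.128 in the 6-array limma fit and 0.00661 with the spread of all 24 arrays. For the other upstream kinase genes the estimates lay near 0: SAK1 differed by 0.00 (95% interval -0.12 to 0.13) and ELM1 by 0.05 (-0.18 to 0.29).

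The rest of the Snf1 pathway gave no call in either fit. SNF1, the catalytic subunit, read 12.69, 12.71 and 12.60 in sip1Δ and 12.38, 12.49 and 12.51 in sip2Δ, a difference of 0.21 ± 0.05 without overlap that was not called (limma, adjusted p = 0.269). SNF4, the regulatory subunit, differed by 0.03 (95% interval -0.24 to 0.30). REG1 and GLC7, the phosphatase pair that switches Snf1 off, differed by 0.02 and 0.04. Of 11 genes of the complex and its upstream enzymes, SIP1 and SIP2 were called in the 6-array fit, and TOS3 joined them with the spread of all 24 arrays.

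The transcription factors that Snf1 controls were likewise not called. MIG1, the glucose repressor, differed by 0.11 (95% interval -0.09 to 0.31), CAT8 by 0.08 (-0.03 to 0.18) and SIP4 by -0.14 (-0.41 to 0.12). ADR1, the activator of alcohol and fatty acid use, read 12.29, 12.39 and 12.33 in sip1Δ and 11.96, 11.81 and 12.20 in sip2Δ. Its arrays did not overlap, and its difference of 0.34 ± 0.11 was not called (limma, adjusted p = 0.329). HAP4, the activator of respiratory genes, differed by 0.20 ± 0.06 without overlap (adjusted p = 0.329). None of the 16 repressors and activators was called, and 4 (25%) had sip1Δ arrays all above the sip2Δ arrays, as had 12.8% of all genes. After subtracting each array's median it was 3 (18.8%), against 7.69% of all genes.

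Genes for gluconeogenesis and the glyoxylate cycle were high in both strains, and 0 of 13 were called in the 6-array fit. FBP1, fructose-1,6-bisphosphatase, read 12.19, 12.15 and 12.22 in sip1Δ and 12.35, 12.23 and 12.37 in sip2Δ, a difference of -0.13 (95% interval -0.25 to -0.01, limma adjusted p = 0.372). PCK1, phosphoenolpyruvate carboxykinase, differed the other way by 0.25 (0.00 to 0.50, adjusted p = 0.385). ICL1 and MLS1, the glyoxylate cycle enzymes isocitrate lyase and malate synthase, differed by 0.02 (-0.23 to 0.27) and -0.23 (-0.51 to 0.04). The intervals of these 4 genes reached at most 0.51 from 0. CIT2, the peroxisomal citrate synthase, read 14.00, 14.00 and 13.90 against 13.74, 13.74 and 13.64, the clearest separation of the list. Its difference of 0.26 ± 0.05 was not called with 6 arrays or with the spread of 24 (adjusted p = 0.249 and 0.0652). It was called where the 3 doubted arrays were left out of the larger set (limma, adjusted p = 0.0187). The list's median difference was 0.08, and 0.02 without sip2Δ replicate 2.

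Of the genes for other carbon sources, ADH2, ACS1 and JEN1 showed narrow intervals. ADH2, the ethanol-oxidising alcohol dehydrogenase, differed by -0.01 (95% interval -0.10 to 0.07), ACS1, acetyl-CoA synthetase, by -0.03 (-0.15 to 0.09) and JEN1, the lactate carrier, by -0.03 (-0.15 to 0.10). All 3 read above 14 in every array of the 2 strains, where the highest value of any probe set was 15.93. SUC2, the secreted invertase and the classic target of Snf1, read 13.48, 13.99 and 13.58 in sip1Δ and 13.58, 13.63 and 13.92 in sip2Δ. The replicates of SUC2 overlapped, and its interval was wider, from -0.45 to 0.40. The hexose transporter genes HXT2, HXT5 and HXT7 differed by 0.12, -0.02 and 0.02, HXT7 through a shared probe set. HXT1, the low-affinity transporter induced by high glucose, stood at the bottom of the scale in both strains, at 2.22 to 2.26. None of the 17 hexose transporter and sensor genes was called.

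**Figure D3:**
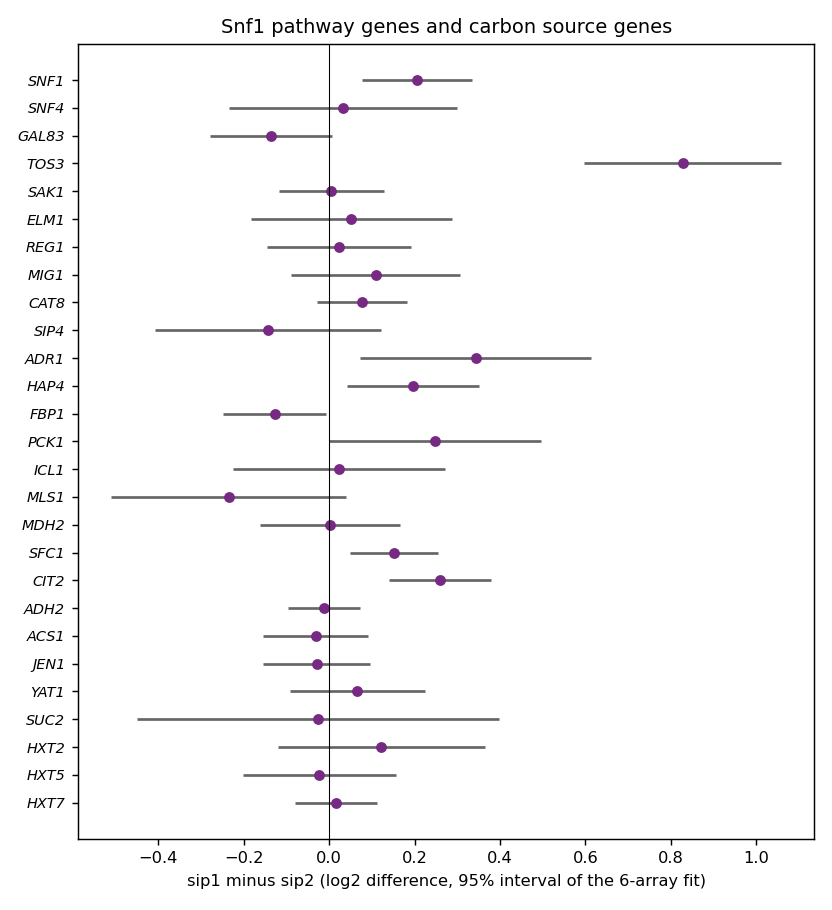
Differences between the sip1Δ and sip2Δ strains (points, log2) with their 95% intervals from the 6-array limma fit (lines) for 27 genes of the Snf1 pathway and of carbon source use. TOS3 at 0.83 lies apart from the others, and most intervals include or come close to 0.

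Outside the called genes, groups of genes were described by how many had arrays of one strain all above those of the other. Over all 5449 genes this was so for 995 (18.3%): 699 with sip1Δ higher (12.8%) and 296 with sip1Δ lower (5.43%). With each array's median subtracted, 419 genes (7.69%) were higher and 535 (9.82%) lower. The direction of the whole set thus turned with a small shift between arrays, whose medians ran from 10.90 to 10.98, and the list counts below are given both ways where centring moved them.

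The oxidative and drug response held the largest share of genes lower in every sip1Δ array among the lists with 20 or more measured genes. Of 28 measured genes for old yellow enzymes, glutathione and drug transport, 0 were called in the 6-array fit. The sip1Δ arrays lay all below the sip2Δ arrays in 11 (39.3%, 50% after centring) and above in 1. Of all genes, 5.43% lay all below, and 9.82% after centring. The list's median difference was -0.07. OYE3, an NADPH oxidoreductase, read 10.96, 10.25 and 10.85 in sip1Δ and 11.93, 11.87 and 11.57 in sip2Δ. Its difference of -1.11 ± 0.22 was called with the spread of all 24 arrays (limma, adjusted p = 0.0152) but not with the 6 (adjusted p = 0.249).

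FLR1, a multidrug exporter gene under the oxidative stress factor Yap1, read 10.05, 10.02 and 10.20 in sip1Δ and 10.87, 10.91 and 10.49 in sip2Δ. Its strains were apart by -0.66 ± 0.13, called with the spread of 24 arrays only (limma, adjusted p = 0.0444). GTT2, a glutathione transferase, differed by -0.63 ± 0.19 and ATR1, another exporter, by -0.43 ± 0.14, neither called in either fit. GSH1, the first enzyme of glutathione synthesis, went the other way, at 13.07, 13.14 and 12.88 against 12.74, 12.76 and 12.70, a difference of 0.30 ± 0.07 (adjusted p = 0.269). GSH1 was called only where the 3 doubted arrays were left out of the larger set (limma, adjusted p = 0.0272).

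Stress genes under Msn2 and Msn4, transcription factors of the general stress response, gave no call among 24. In 23 the difference was below 0, where 63.2% of all genes were above it. In 9 the sip1Δ arrays lay all below the sip2Δ arrays (37.5%, 45.8% after centring), against 5.43% and 9.82% of all genes. The median difference was -0.13. CTT1, the cytosolic catalase, read 11.52, 10.83 and 11.55 in sip1Δ and 11.80, 12.07 and 11.68 in sip2Δ, and PAI3, a proteinase A inhibitor, read 13.11, 12.48 and 13.39 against 13.61, 13.60 and 13.52. In both, sip1Δ replicate 2 was the lowest array, and the list's median was -0.06 without it. HSP78, a mitochondrial chaperone, was the exception, at 0.23 ± 0.08.

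Of 18 cell wall mannoprotein genes 0 were called, and in 6 (33.3%, 38.9% after centring) the sip1Δ arrays were all lower. The shares over all genes were 5.43% and 9.82%. PIR3 read 13.21, 12.80 and 13.47 against 13.74, 13.69 and 13.79, a difference of -0.58 ± 0.17. YGP1, a secreted glycoprotein, differed by -0.51 ± 0.12. DAN4 was higher in all sip1Δ arrays, by 0.32 ± 0.10. None of these 3 passed the test in either fit.

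Mitochondrial ribosomal protein genes had estimates mostly above 0. Of 74 measured, 58 were above and 16 below it, where 63.2% of all genes were above. In this list 0 were called in the 6-array fit, 22 had sip1Δ arrays all higher (29.7%) and 1 all lower (18, or 24.3%, and 4, or 5.41%, after centring), with a median difference of 0.09. Of all genes, 12.8% were all higher and 5.43% all lower (7.69% and 9.82% after centring). MRP51, of the small subunit, read 12.52, 12.68 and 12.47 in sip1Δ and 12.21, 12.30 and 12.27 in sip2Δ. Its difference of 0.29 ± 0.06 was called with the spread of 24 arrays (limma, adjusted p = 0.0226). GUF1, a mitochondrial elongation factor outside that list, differed by 0.42 ± 0.06 without overlap (adjusted p = 0.185). GUF1 was called only where the 3 doubted arrays were left out of the larger set (limma, adjusted p = 0.0144). The 129 cytosolic ribosomal protein genes gave no call, with a median of 0.01 (-0.03 after centring). In 9 the sip1Δ arrays were all higher and in 5 all lower, but after centring 1 was all higher and 27 (20.9%) all lower, so the direction turned with the scaling.

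Several iron uptake genes spread widely between replicates. TIS11, an mRNA-decay factor of low iron, read 7.49, 6.02 and 6.93 in sip1Δ and 8.04, 8.64 and 6.92 in sip2Δ. FIT2, a cell wall siderophore-binding protein, differed by -0.80 ± 0.51 and SIT1, a siderophore transporter, by -0.80 ± 0.64. These 3 differences were within the replicate spread (adjusted p = 0.495, 0.546 and 0.631 in limma). The iron list had 0 called of 32 in the 6-array fit and a median of -0.01. ISU2, a scaffold of iron-sulfur cluster assembly, differed by -0.50 ± 0.09 and was called with the spread of 24 arrays (adjusted p = 0.0254), whereas YFH1, frataxin, differed by 0.37 ± 0.09 in the other direction (adjusted p = 0.0152 in the same fit).

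Of lipid genes, INO1, inositol-3-phosphate synthase, read 13.78, 13.62 and 13.70 in sip1Δ and 14.12, 14.13 and 14.21 in sip2Δ. The arrays were well apart, yet the difference of -0.45 ± 0.05 was not called (limma, adjusted p = 0.128 with 6 arrays and 0.080 with 24). With trend and robust eBayes on the 6 arrays INO1 was called (limma, adjusted p = 0.0179). UPC2, the sterol-sensing activator, read 10.36, 10.52 and 10.66 against 9.81, 9.94 and 9.89, a difference of 0.63 ± 0.09 (adjusted p = 0.185). The list of 29 ergosterol genes and their regulators, UPC2 included, had a median difference of 0.04 and 0 called. Glycolysis and fermentation genes had a median of -0.03 and 0 of 20 called.

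**Figure D4:**
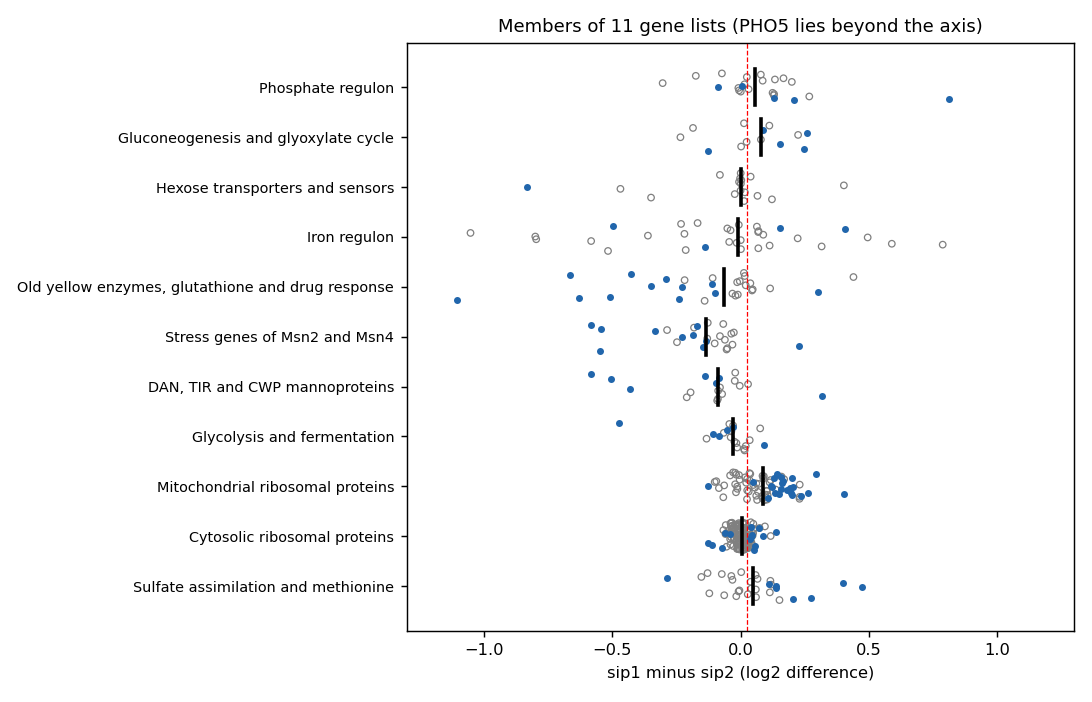
Differences between the sip1Δ and sip2Δ strains (horizontal axis, log2) for the members of 11 gene lists, 1 point a gene; filled blue points are genes whose arrays did not overlap between strains, open points those that did. Black bars are list medians and the dashed red line the median of all genes, 0.02. PHO5 lies beyond the axis, and the stress list has 23 of 24 points below 0.

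The genes that passed only with the spread of all 24 arrays were mostly of small difference, and in each the 3 arrays of one strain lay beyond the 3 of the other. Among those lower in sip1Δ, SPT14, which starts the synthesis of membrane protein anchors, read 7.07, 7.47 and 6.91 against 7.99, 7.92 and 7.70, a difference of -0.72 ± 0.17. MCH5, a riboflavin transporter, differed by -0.60 ± 0.08, RME1, a repressor of entry into meiosis, by -0.48 ± 0.13, and DFR1, dihydrofolate reductase, by -0.30 ± 0.07. AYR1, a lipid reductase, differed by -0.28. HMF1 differed by -0.13 and was not called where the 3 doubted arrays were left out (limma, adjusted p = 0.0511). The reading frame YBR013C differed by -0.73 at low levels, 3.53, 2.76 and 3.32 against 3.93, 3.94 and 3.93.

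Among those higher in sip1Δ, QRI7, a mitochondrial tRNA modification enzyme, read 8.25, 8.0 and 8.20 against 7.59, 7.25 and 7.47, a difference of 0.71 ± 0.11. SRY1, a hydroxyaspartate dehydratase, differed by 0.67 ± 0.17, SPC42, a spindle pole body component, by 0.55 ± 0.12, and the mitochondrial metal transporter gene MMT2 by 0.48 ± 0.08. MOB2, the partner of the kinase Cbk1, and UBP16, a deubiquitinating enzyme, both differed by 0.40, and SER3, of serine synthesis, by 0.31. STE50, an adaptor of the mating and osmotic stress pathways, differed by 0.28. The other genes of this set lay between 0.18 (GPI14) and 0.48 (IRC3). Of these, YMR105W-A read near the bottom of the scale, at 2.36 to 2.43 against 2.14 to 2.25. Standard errors here are those of the 6-array fit.

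YLR154C-H showed the largest difference in log2 units that limma did not call. Its probe set is shared with near-identical sequences. It read 8.05, 8.38 and 13.61 in sip1Δ and 13.20, 13.68 and 13.95 in sip2Δ. A single sip1Δ array, replicate 3, stood with the sip2Δ arrays, and the difference of -3.60 ± 1.59 had an adjusted p of 0.423. Without that array the difference was -5.40 (adjusted p = 0.016). One gal83Δ array also read high (13.39), and the reference arrays read 6.70 to 7.42. YDL218W, an uncharacterised reading frame, read 11.64, 10.78 and 12.14 against 13.59, 13.36 and 13.28, a difference of -1.89 ± 0.36 (adjusted p = 0.249 with 6 arrays and 0.0614 with 24). It was called where the 3 doubted arrays were left out of the larger set (limma, adjusted p = 0.0149).

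The same difference was then read in strains that also lacked GAL83, where the sip1Δ gal83Δ strain keeps SIP2 alone and the sip2Δ gal83Δ strain SIP1 alone. These arrays are separate from those above, and 2 of them were doubted: sip1Δ gal83Δ replicate 2, for its GAL83 signal, and sip2Δ gal83Δ replicate 1, set aside in an earlier analysis of the same data, whose 2 deleted genes read 2.03 and 2.08. In a fit to the 12 arrays of the 4 strains, 71 genes (1.3%) were called between the GAL83-free strains, 57 higher and 14 lower in sip1Δ gal83Δ. Without the 2 doubted arrays 57 were called (1.05%). The count was 7 without sip1Δ gal83Δ replicate 1, 27 without replicate 2 and 119 without sip2Δ gal83Δ replicate 1.

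PHO5 was lower in sip1Δ gal83Δ as well, by -5.00 ± 0.63 (limma, n = 3 arrays per strain, adjusted p = 0.0127), or by -5.91 without the doubted arrays (adjusted p = 1.44e-08). The test of the difference between both contrasts did not call it (-0.83, adjusted p = 0.693). PHO3 read 6.52, 4.91 and 5.91 in sip1Δ gal83Δ and 4.50, 4.86 and 4.57 in sip2Δ gal83Δ, a difference of 1.14 that was not called (adjusted p = 0.114). YHR054C rose in sip1Δ gal83Δ relative to sip2Δ gal83Δ by 0.97 ± 0.07 (adjusted p = 2.25e-04), and the contrasts differed by 0.07 (adjusted p = 0.742).

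YIR042C was the single gene called for a change between the contrasts with and without GAL83 in the 12-array fit, 1 of 5449 (0.0184%). Its arrays read 8.04 to 8.88 in sip1Δ gal83Δ and 8.03 to 8.80 in sip2Δ gal83Δ, which overlap, and the contrasts differed by -4.19 (limma, adjusted p = 0.00442), or by -4.30 without the doubted arrays (adjusted p = 0.00557). Without the doubted arrays 7 genes were called (0.128%), 3 of them higher (0.0551%) and 4 lower (0.0734%): YIR042C, SIP2 and 5 others. These were MIG2, a glucose repressor gene (-0.76), TPO1, a polyamine exporter gene (-0.63), the subtelomeric genes COS10 (-1.55) and PAU4 (2.27), and YMR317W (2.29). MIG2 read 1.98 in all 6 arrays of the single-deletion strains.

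PAU14 differed by 0.23 and TOS3 by 0.19 without GAL83, against 2.34 and 0.83 with it, and the tests of the change had adjusted p of 0.159 and 0.183 in limma. HXT4, a hexose transporter gene, differed by 0.07 with GAL83 and by 1.88 ± 0.17 without (adjusted p = 0.00143), and its change missed the threshold (-1.81, adjusted p = 0.0526). Of the 34 genes called with the spread of 24 arrays besides SIP1 and SIP2, 25 (73.5%) differed in the same direction without GAL83, against 53.5% of all genes. The spread used to call them included the arrays lacking GAL83. Of the 116 genes that differed by 0.5 or more, SIP1 and SIP2 included, 61 (52.6%) kept their direction, near the share of all genes. The median absolute difference of the 34 genes was 0.47 with GAL83, the value they were chosen on, and 0.16 without, where that of all genes was 0.13.

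**Figure D5:**
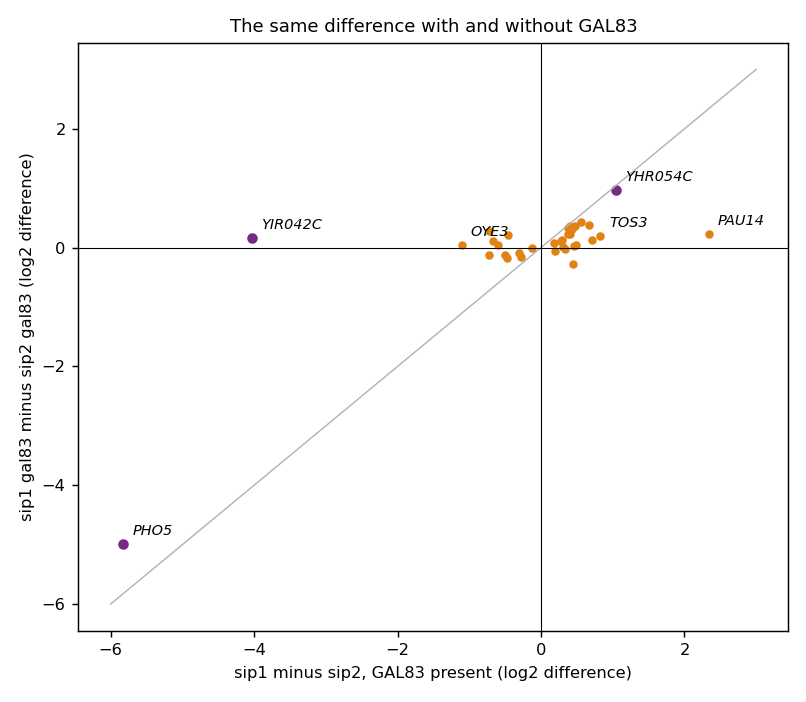
The difference between strains lacking SIP1 and strains lacking SIP2 with GAL83 present (horizontal axis, log2) and with GAL83 deleted (vertical axis, log2), for the 34 genes called with the spread of all 24 arrays besides SIP1 and SIP2; purple points passed with the 6 arrays alone, and the grey line marks equal differences. PHO5 (-5.82 and -5.00) and YHR054C (1.04 and 0.97) lie near the line, and YIR042C (-4.03 and 0.16) lies far from it.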

How the data were processed

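The deposited values are log2 probe-set intensities of 24 one-colour Affymetrix arrays, which the authors summarised by RMA using affy. The submitters' processing notes name both tools without versions. Which arrays were normalized together is not given in the sources used here, and scanner files were not used. Of 5716 probe sets, 5498 named 1 gene, 0 several and 218 none; 49 second probe sets of a gene were left out (the one with the highest mean was kept), leaving 5449 genes. All identifiers matched the reference gene table (assembly R64, names only), and 12 symbols were updated. Of the genes, 111 have a probe set shared with near-identical sequences. Low values were kept, and coordinates are not printed.

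Groups were taken from the titles. Limma 3.58.1 in R 4.3.3 (lmFit, eBayes) fitted a mean per strain to the 6 arrays alone, and to 12 arrays of 4 strains for the comparison without GAL83. Tests were two-sided, and calls needed an adjusted p (Benjamini-Hochberg, all 5449 genes) under 0.05, without a fold limit. The members and lists were chosen with earlier results of these data known. Named genes were SIP1, SIP2 and GAL83, up to 15 called genes each way with standard names and no overlap between strains, up to 4 called members of each of 44 lists, and a panel of carbon source and phosphate genes; 26 were named so, and the others after their values were seen.

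Alternatives were other scalings, filters, probe sets and variance settings, a replicate block, larger sets of arrays, and each replicate left out. On data simulated for the 6-array comparison over 5449 genes, the fit recovered 72%, 86%, 94% and 96% of genes changed by 0.5, 1, 2 and 4 (log2), with 6 false calls among 180. The simulated noise was normal, with variances drawn from the fit's own prior, and far more genes were changed than were called in the real data. In the real comparison 5 genes were called while 116 differed by 0.5 or more. The simulated shares therefore do not give its power, and an uncalled gene is not shown to be unchanged. Within strains the 6 arrays correlated at 0.9965 to 0.9978, and 0 pairs of arrays were identical.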

Additional observations from a re-analysis of the deposited data

Results flagged for a closer look

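YIR042C stood out because its difference between the sip1Δ and sip2Δ strains was not seen between the strains that also lacked GAL83. With GAL83 present it was -4.03 (log2), and without GAL83 it was 0.16. The contrasts differed by -4.19 in the 12-array limma fit (adjusted p = 0.00442), with the 3 sip1Δ arrays at 3.84 to 4.11 and all arrays of the other strains at 7.33 or above. The sip1Δ sip2Δ strain, which lacks SIP1 and keeps GAL83, read 8.87 and 9.02, and 8.81 in the library labelled replicate 3. The low level was thus seen in the sip1Δ single strain only, and the contrast does not show a dependence on GAL83 in general. The cause was not tested.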

How the results depend on the processing

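The 5 genes called between sip1Δ and sip2Δ were also all called after median centring (7 genes), after quantile normalization (6), with all probe sets (5) and with array weights (6). The count was 1 with the lowest 25% of gene means left out, which removes SIP1, SIP2, PHO5 and YIR042C, 8 with trend and robust eBayes, 36 with all 24 arrays, 23 without the reference arrays and 64 without the 3 doubted arrays. Leaving out each replicate gave 4 to 9, the highest without sip1Δ replicate 3. With values raised to the level that bounds the lowest 25% of genes (9.622), 7 genes were called, and PHO5 and YIR042C then differed by 0. PAU14 passed after centring (adjusted p = 0.0109), quantile normalization (0.0188) and without sip2Δ replicate 2 (0.0228), and TOS3 after centring (0.0344).

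Same-numbered replicates of the strains correlated at 0.251, 0.138 and 0.032 in their deviations, and differently numbered ones at -0.187 to 0.047. The titles give only a replicate number, and the main fit took no pairs. Whether same-numbered replicates shared an effect was not tested. With the replicate block 4 genes were called, YHR054C not among them (adjusted p = 0.263), against 38 for the strains without GAL83 and 2 for the change with GAL83.

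For the strains lacking GAL83, 71 genes became 45 after centring, 43 after quantile normalization, 1037 with array weights, 679 with all 24 arrays, 522 without the reference and 183 without the 3 doubted arrays. Leaving out each replicate gave 7 to 119. For the change with GAL83, 1 gene became 4 after centring and with the lowest genes left out, 7 with values raised, 5 with trend and robust eBayes, 64 with array weights, 46 with all 24 arrays, 23 without the reference, 28 without the 3 doubted and 7 with the 12 arrays without the 2 doubted, an alternative chosen after seeing the data. Leaving out each replicate gave 1 to 9. The causes of these changes in count were not tested.

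Of 2419 values for single genes under these alternatives, 2242 kept their direction and side of the threshold, 92 became called, 8 lost a call, and 77 changed sign while called in neither fit. Of 747 list medians, 743 moved by less than the spread between arrays. Signals near 2 bound a level from above only.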
